A study of Homo sapiens with 6 samples.

Results

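A set of 9 genes that regulate Wnt signalling or respond to it was described by the SWI/SNF peaks around them. They were ZNRF3, RNF43, LGR5, APCDD1, AXIN2, NKD1, CTNNB1, LEF1 and TCF7L2, 9 of 20037 protein-coding genes in the RefSeq table used. A peak was counted at a gene when its summit lay inside the RefSeq GRCh38 gene span or within 100 kb of either end. This gave 66 of 44308 peaks for MR49F BRG1, 60 of 36174 for LNCaP BRG1, 75 of 47615 for MR49F SMARCC2 and 38 of 25706 for LNCaP SMARCC2.

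MR49F is an enzalutamide-resistant line derived from the human prostate cancer line LNCaP, and its medium held 10 µM enzalutamide, an androgen receptor antagonist. LNCaP is the drug-sensitive line, and its medium as described names no enzalutamide, so line and drug exposure cannot be told apart. In both lines chromatin was crosslinked with 2 mM DSG for 45 min before formaldehyde (1%, 10 min), and precipitated with antibodies against BRG1 (4 µg), the ATPase subunit, or SMARCC2 (4 µg), a scaffold subunit. Each line and antibody had 1 library, so values have no replicate error and no p-value was computed. The least significant peak of each list had a −log10 q-value between 2.001 and 2.014, and the median peak of a list rested on 27 or 28 fragments at its summit. Peaks were found near the 6 prostate luminal marker genes in all 4 lists. Summed gene by gene, the counts were 95, 88, 94 and 58 for MR49F BRG1, LNCaP BRG1, MR49F SMARCC2 and LNCaP SMARCC2. KLK2 and KLK3 each had 18, 18, 16 and 11 in that order, and a peak in both windows entered the sum at each gene. Peaks also lay near markers of leukocytes, hepatocytes, fibroblasts and muscle (31, 26, 29 and 21 summed over 8 genes). Such windows therefore do not test the identity of the cells.

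Wnt ligands bind Frizzled receptors and LRP co-receptors, which halts the destruction complex and lets beta-catenin enter the nucleus, where it joins TCF/LEF proteins on DNA. The pathway restrains itself: ZNRF3 and RNF43 are membrane E3 ubiquitin ligases that remove Frizzled from the cell surface, and LGR5 is a receptor for R-spondins, which block those ligases. APCDD1 is a membrane inhibitor that binds Wnt ligands and LRP co-receptors, AXIN2 is a scaffold of the destruction complex, and NKD1 antagonises Dishevelled. CTNNB1 encodes beta-catenin, and LEF1 and TCF7L2 encode its DNA-binding partners. SWI/SNF slides or evicts nucleosomes, and its peaks mark places where the remodeller was crosslinked to chromatin.

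All 9 genes had at least 1 peak in each of the 4 lists, which held for 81.1% of protein-coding genes. The MR49F share of BRG1 peaks, that is MR49F peaks over MR49F plus LNCaP peaks, was 52.4% over the 9 genes (66 of 126, Wilson 95% interval 43.7 to 60.9). Over the whole BRG1 lists it was 55.1%. For SMARCC2 the share was 66.4% (75 of 113, 57.3 to 74.4), against 64.9% over the whole lists. Among the 10000 strongest peaks of each list both shares turned below 50%, to 47.8% for BRG1 and 40.7% for SMARCC2. In the full lists both intervals, which cover counting error only, contain the share of the whole lists. The median share per gene was 53.3% for BRG1 and 72.7% for SMARCC2 over the 9 genes, beside 55.6% and 66.7% over all genes with a peak.

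At ZNRF3, LGR5, APCDD1, AXIN2 and LEF1 the MR49F peaks outnumbered the LNCaP peaks for BRG1 and for SMARCC2, 5 of 9 genes against 53.8% of all genes. Among the 10000 strongest peaks of each list this held for 2, AXIN2 and LEF1, with no share of all genes at hand for that setting. In the full lists none of the 9 genes had more LNCaP peaks with both, against 3.94% of all genes. Counting BRG1 peaks, ZNRF3, LGR5, APCDD1, AXIN2 and LEF1 had more in MR49F (5 of 9, against 58.2% of all genes). In the same count NKD1 and TCF7L2 had more LNCaP peaks, 2 of 9 against 20.7% of all genes. Counting SMARCC2 peaks, 8 of 9 had more in MR49F, against 79.1% of all genes, and RNF43 was tied; 0 of 9 had more in LNCaP, against 6.15%. At ZNRF3 the SMARCC2 ratio was 1.83, while LGR5, APCDD1, AXIN2, NKD1 and LEF1 had at least 2 times as many SMARCC2 peaks in MR49F, 5 of 9 against 51.4% of all genes. These shares lie near the background, so the counts are no result particular to the list. Local background in the fixed 10 Mb window that holds the gene, as a ratio of MR49F to LNCaP relative to autosomes, is given with each gene. The ratio rests on medians over called peaks and is coarse: with BRG1 it was 0.946 at RNF43, AXIN2 and TCF7L2 alike. It is not specific to a gene, and its part in the counts was not tested. Neighbouring genes share the windows: of the 102 merged regions at the 9 genes, 55 had their strongest summit inside the gene itself and 42 lay nearer to an end of another protein-coding gene.

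**Figure D1:**
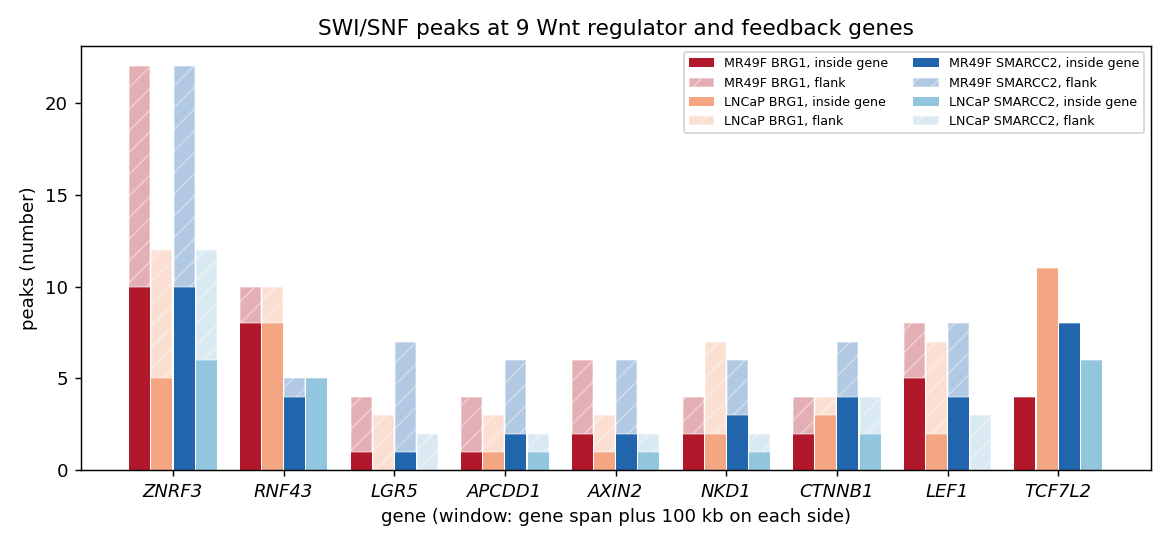
Number of peaks per gene in each list (y axis), for the 9 genes ordered by role (x axis). Solid parts are summits inside the gene and hatched parts are summits within 100 kb of it. ZNRF3 reaches 22 peaks in each MR49F list and 12 in each LNCaP list, and TCF7L2 has its highest bar, 11, in LNCaP BRG1.

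ZNRF3 (chromosome 22, 28883572 to 29057488) had the densest set of peaks of the 9 genes. It had 22 MR49F BRG1 and 12 LNCaP BRG1 peaks, and 22 MR49F SMARCC2 and 12 LNCaP SMARCC2 peaks. Summed over the 4 lists this was 18.2 peaks per 100 kb of window, against a median of 7.66 over all genes. Regions with peaks of BRG1 and SMARCC2 in MR49F but of neither in LNCaP numbered 8, and the reverse 0. Among the 10000 strongest peaks of each list both came to 2, and the peaks were tied, at 3 MR49F and 3 LNCaP for BRG1 and 4 MR49F and 4 LNCaP for SMARCC2. With peaks below a −log10 q-value of 5 left out, the MR49F-only regions of both antibodies at ZNRF3 numbered 5, with no share of all genes at hand. Of all genes, 139 (0.694%) had at least 8 such MR49F-only regions in their window, counted in the full lists. That count is not scaled to window length, which was 374 kb for ZNRF3 against a median of 224 kb over all genes. Of the 8, 4 lay inside ZNRF3, and the rest lay nearest to XBP1, C22orf31 or KREMEN1. The most significant of the 4 inside with BRG1 (29030036 to 29031062) had a −log10 q-value of 15.9 with BRG1 and 8.71 with SMARCC2, from 36 and 23 fragments at the summit. Outside the gene, the region at 28813320 to 28814758, 13.5 kb from XBP1, was stronger, at 16.6 with BRG1 and 26.2 with SMARCC2.

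The strongest peaks of the window lay outside ZNRF3. A region at 28821531 to 28824271 was called in all 4 lists, with −log10 q-values of 29.8 in MR49F BRG1, 7.98 in LNCaP BRG1, 37.9 in MR49F SMARCC2 and 12.8 in LNCaP SMARCC2. Its strongest summit stood at −60.6 kb from the lower-coordinate end of ZNRF3, and the region lay 22.3 kb from XBP1, the gene of an unfolded-protein-response transcription factor, so its position does not tie it to ZNRF3. Close to the lower-coordinate end of ZNRF3, a region 0.657 kb inside the gene was also called in every list, with −log10 q-values of 10.7 and 4.83 for MR49F and LNCaP BRG1 and 12.2 and 10.7 for MR49F and LNCaP SMARCC2. The local background ratio of MR49F to LNCaP was 0.855 for BRG1 and 1.05 for SMARCC2.

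RNF43 (chromosome 17, 58352500 to 58417534), the homologue of ZNRF3, showed no excess of peaks in either line. It had 10 MR49F and 10 LNCaP BRG1 peaks, and 5 MR49F and 5 LNCaP SMARCC2 peaks. Most lay inside the gene, 8 and 8 with BRG1 and 4 and 5 with SMARCC2. An intragenic region at 58387306 to 58389120 carried the most significant BRG1 peaks of the 9 genes in both lines. Its BRG1 −log10 q-values were 43.1 in MR49F and 33.5 in LNCaP, within the strongest 4.67% and 1.71% of their lists, from 63 and 65 fragments. With SMARCC2 the values were 18.1 in MR49F and 10.1 in LNCaP. Another region (58390934 to 58392068) was likewise in all 4 lists. Its −log10 q-values were 31.0 in MR49F BRG1, 10.6 in LNCaP BRG1, 32.3 in MR49F SMARCC2 and 7.91 in LNCaP SMARCC2. The fragments were 50, 50, 50 and 47 in that order. A weaker region (58398066 to 58399588) was also in all 4 lists, at 6.22, 4.45, 7.28 and 7.07 in the same order. The local background ratio around RNF43 was 0.946 for BRG1 and 0.954 for SMARCC2.

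The lines differed at particular sites of RNF43. A region inside the gene at 58400852 to 58401994 was called in LNCaP by both antibodies, at a −log10 q-value of 11.9 in the BRG1 list and 14.2 in the SMARCC2 list, and in neither MR49F list. Its peaks ended 708 and 678 bases from the promoter window of a further RefSeq start of RNF43 at 58402721, which holds 1 AP-1 match (TGANTCA). It was the only one of the 3 LNCaP-only regions of both antibodies at the 9 genes that remained at a −log10 q-value of at least 5. The 1 MR49F-only region of both antibodies was 96.8 kb beyond the gene and 4.76 kb from MTMR4. The RefSeq start of RNF43, on the minus strand, was covered by a LNCaP BRG1 peak (−log10 q-value 4.94, 23 fragments) whose summit lay 5 bases upstream of the start. The nearest MR49F BRG1 peak ended 396 bases from the promoter window and the nearest LNCaP SMARCC2 peak 226 bases from it. The window is shown here because it lies under a peak in 1 list only. It runs from 250 bases before the start to 50 after it, from RefSeq (GRCh38.p14), chr17:58417485-58417784, minus strand, 5′ to 3′, with the matches to CCAAT in capitals on either strand:
RNF43 start: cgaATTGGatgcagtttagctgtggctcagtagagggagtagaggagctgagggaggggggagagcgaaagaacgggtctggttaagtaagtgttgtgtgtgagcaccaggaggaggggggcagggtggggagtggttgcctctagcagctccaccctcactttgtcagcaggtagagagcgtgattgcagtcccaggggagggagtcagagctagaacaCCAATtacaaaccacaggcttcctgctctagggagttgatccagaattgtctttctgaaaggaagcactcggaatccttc

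LGR5 (chromosome 12, 71439129 to 71586310) was nearly empty of peaks inside the gene. Its window held 4 MR49F and 3 LNCaP BRG1 peaks, and 7 MR49F and 2 LNCaP SMARCC2 peaks. Only 1 MR49F peak of each antibody and 0 LNCaP peaks lay within the gene, in a region 0.906 kb inside its lower-coordinate end. The BRG1 peak there had a −log10 q-value of 2.18 and the SMARCC2 peak 4.44, from 16 and 19 fragments, and the BRG1 peak stood at 99.1% of its list counted from the strongest. The remaining peaks lay beyond the other end of the gene towards ZFC3H1, THAP2 and TMEM19. The local background ratio was 1.22 for BRG1 and 1.35 for SMARCC2, higher in MR49F with each.

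**Figure D2:**
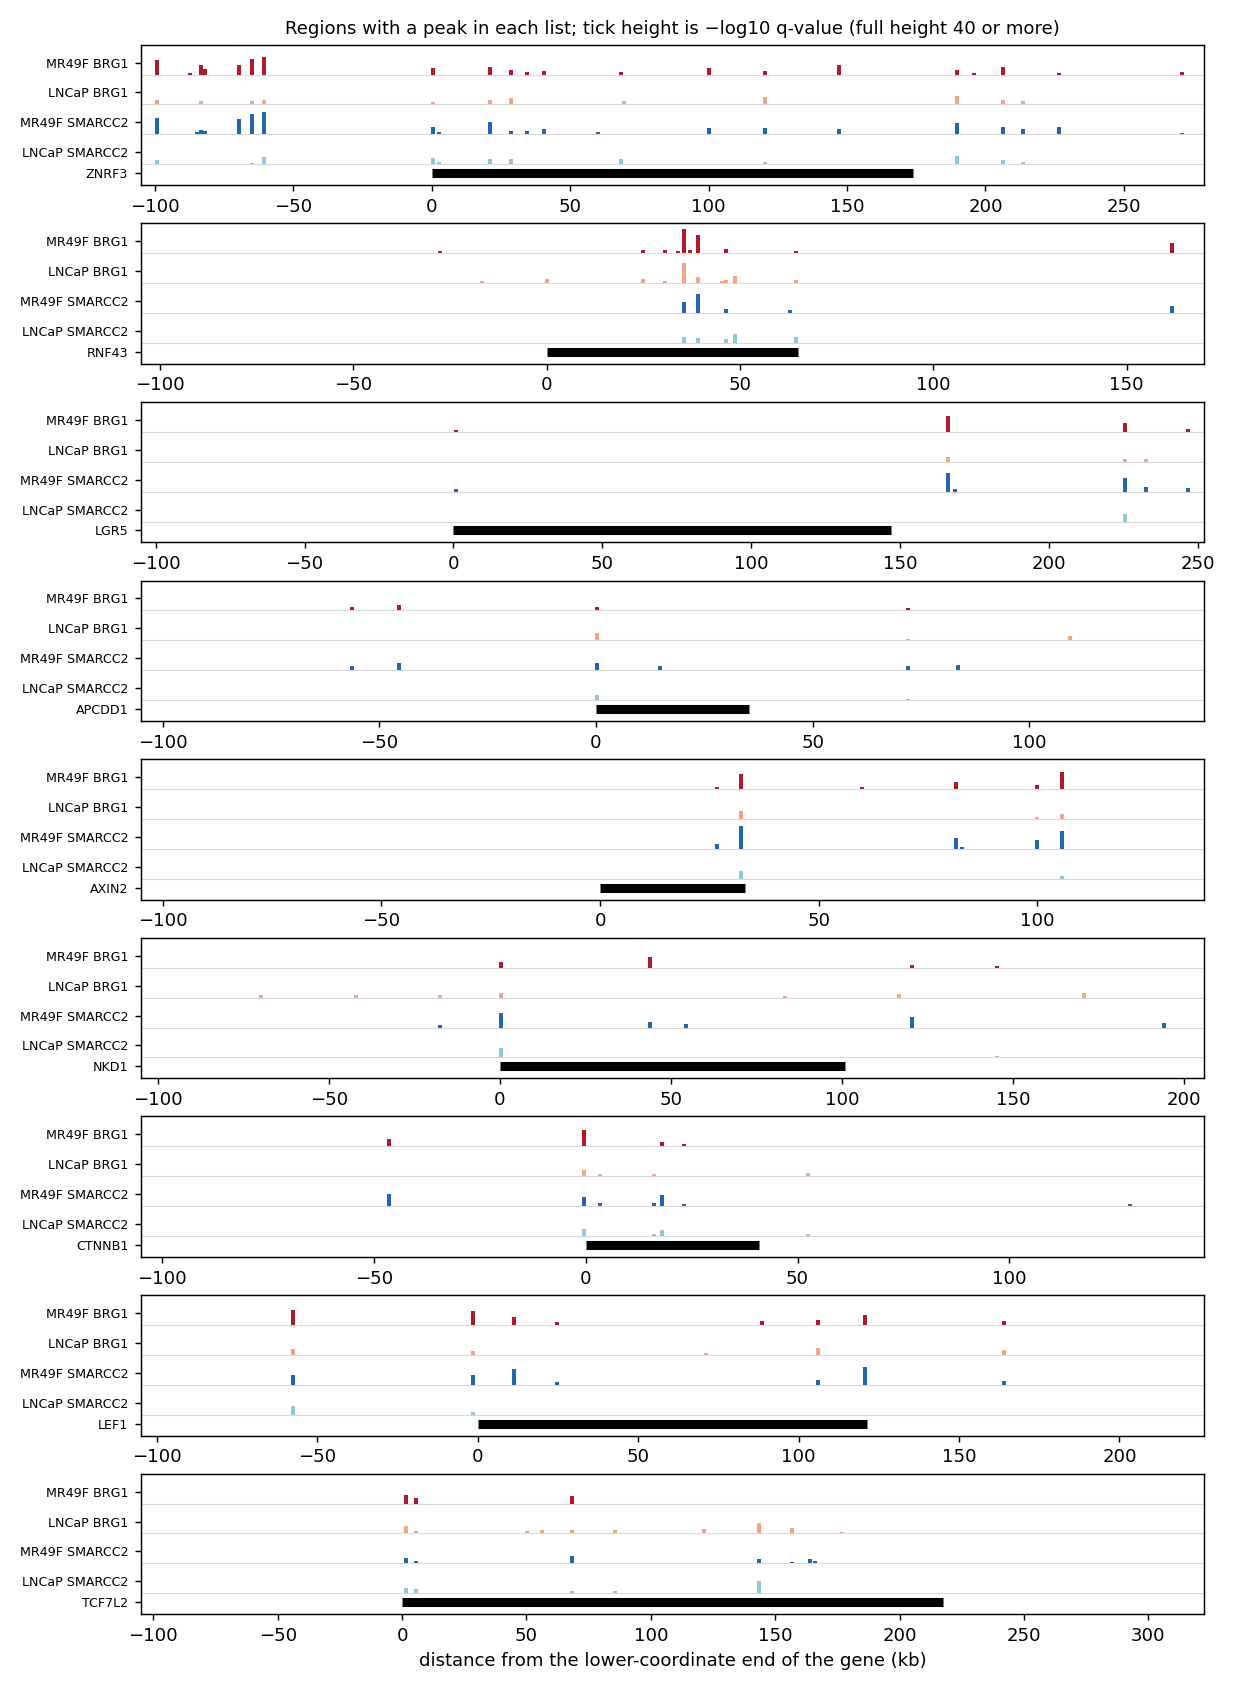
Positions of the regions at each of the 9 genes, as distance in kb from the lower-coordinate end of the gene (x axis), with 1 row per list and the gene as a black bar. Each tick stands at the strongest summit of its region, and its height is the −log10 q-value in that list, drawn at full height from 40 upward. The start-side region of LEF1, near the right end of its bar, has ticks in both MR49F rows and none in the LNCaP rows, whereas TCF7L2 has no MR49F BRG1 tick beyond 68.5 kb.

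APCDD1 (chromosome 18, 10454635 to 10489949) had 4 MR49F and 3 LNCaP BRG1 peaks, and 6 MR49F and 2 LNCaP SMARCC2 peaks. A region over its first part (10454691 to 10456189) was in all 4 lists, with −log10 q-values of 5.47 in MR49F BRG1, 11.6 in LNCaP BRG1, 11.6 in MR49F SMARCC2 and 8.3 in LNCaP SMARCC2. Both MR49F-only regions of both antibodies lay upstream of the gene, at −45.5 and −56.3 kb from its start, with no nearer protein-coding gene. The one at −45.5 kb had −log10 q-values of 8.72 with BRG1 and 12.3 with SMARCC2. The local background ratio was 1.29 for BRG1 and 1.28 for SMARCC2, higher in MR49F with each.

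AXIN2 (chromosome 17, 65528563 to 65561648), a direct target of beta-catenin with TCF, had more peaks in its window in MR49F with each antibody. The counts were 6 in MR49F and 3 in LNCaP with BRG1, and 6 in MR49F and 2 in LNCaP with SMARCC2. Inside the gene they were only 2 in MR49F and 1 in LNCaP with each antibody, and the other peaks lay in the flanks. Nearest to CEP112 were 3 MR49F and 2 LNCaP BRG1 peaks, and 4 MR49F and 1 LNCaP SMARCC2 peaks. The region at its upper-coordinate end (65559625 to 65561229) was in all 4 lists. Its −log10 q-values were 24.8 in MR49F BRG1, 12.9 in LNCaP BRG1, 37.5 in MR49F SMARCC2 and 13.7 in LNCaP SMARCC2, with 52, 42, 65 and 45 fragments. The peaks stood between 10.2% and 18.1% of their lists counted from the strongest. An MR49F-only region of both antibodies lay inside the gene at 65554787 to 65555612 (−log10 q-values 2.85 and 7.36 with BRG1 and SMARCC2), and another 48.3 kb beyond the gene and 25.5 kb from CEP112 (11.9 and 18.0). No LNCaP-only region of any kind was called among the 7 regions at AXIN2 or the 6 at LGR5. Such regions made up 16.7% of all regions, so with so few regions their absence is not read as a result. The background ratio around AXIN2 was 0.946 with BRG1 and 0.954 with SMARCC2.

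NKD1 (chromosome 16, 50548396 to 50649249) had opposite balances with the antibodies in its window, as did TCF7L2. No share of all genes is at hand for this pattern. In the window of NKD1, BRG1 had 4 MR49F and 7 LNCaP peaks, whereas SMARCC2 had 6 MR49F and 2 LNCaP peaks. Inside the gene BRG1 was tied, at 2 MR49F and 2 LNCaP peaks, and SMARCC2 had 3 MR49F and 1 LNCaP peaks. The LNCaP excess with BRG1 thus came from the flanks. Of its 12 regions, 5 were called in LNCaP BRG1 alone, with −log10 q-values from 3.32 to 6.86. A region over the lower-coordinate end of the gene (50547478 to 50549409) was in all 4 lists, with −log10 q-values of 9.97 in MR49F BRG1, 8.43 in LNCaP BRG1, 24.2 in MR49F SMARCC2 and 15.0 in LNCaP SMARCC2. An MR49F-only region of both antibodies lay 43.8 kb inside the gene (17.3 with BRG1 and 8.38 with SMARCC2). The background ratio of MR49F to LNCaP was 0.773 for BRG1 and 0.861 for SMARCC2, lower in MR49F with each.

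CTNNB1 (chromosome 3, 41199505 to 41240443) had 4 BRG1 peaks in each line, and 7 MR49F and 4 LNCaP SMARCC2 peaks. Its start was the only 1 of the 8 RefSeq promoter windows on hand for these genes that lay under a peak in every list, which held for 6.3% of 35116 windows. These 8 windows belong to CTNNB1, LEF1, TCF7L2, RNF43 and APCDD1, and none was used for ZNRF3, LGR5, AXIN2 and NKD1. The CTNNB1 peaks had −log10 q-values of 26.7 in MR49F BRG1, 10.1 in LNCaP BRG1, 15.4 in MR49F SMARCC2 and 12.1 in LNCaP SMARCC2, from 44, 36, 33 and 38 fragments. Their summits stood at −513, 416, −384 and −460 bases from the start in the same order, negative values being upstream. The window has a GC content of 74.0% and 3 matches to the GC box GGGCGG on either strand, which 45.0% of all windows hold. The window of RNF43 has a GC content of 54.3%, no GC box and 2 matches to CCAAT, which 34.6% of windows hold. The TCF/LEF core CTTTGAT, searched on both strands, is in 2.62% of all windows and in none of these 8. The letters TGANTCA (an AP-1 site) are in 7.71% of windows, CCGGAAG (an ETS core) in 10.3% and TGTTTAC (a FOXA core) in 3.42%. Of these only the AP-1 letters occur in the 8 windows, in the RNF43 window at 58402721. The CTNNB1 window is shown because peaks of both lines covered it, from RefSeq (GRCh38.p14), chr3:41199255-41199554, plus strand, 5′ to 3′, with the GC boxes of either strand in capitals:
CTNNB1 start: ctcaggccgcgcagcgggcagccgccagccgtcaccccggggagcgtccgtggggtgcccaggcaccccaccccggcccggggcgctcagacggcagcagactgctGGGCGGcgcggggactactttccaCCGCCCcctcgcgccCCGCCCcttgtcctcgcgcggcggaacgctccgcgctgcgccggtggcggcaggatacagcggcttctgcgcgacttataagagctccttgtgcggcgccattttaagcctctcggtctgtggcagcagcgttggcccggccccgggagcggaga

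Away from its start CTNNB1 carried regions of a single line. An MR49F-only region of both antibodies at 41152539 to 41153479, with its strongest summit at −46.4 kb from the start, had −log10 q-values of 11.5 with BRG1 and 20.5 with SMARCC2. Another, inside the gene, was weaker (4.32 and 3.89). The LNCaP-only region of both antibodies (41250933 to 41252141) lay 11.6 kb beyond the gene and 4.94 kb from an end of ULK4, at a −log10 q-value of 4.79 (BRG1, 17 fragments) and 3.42 (SMARCC2, 16 fragments). The background ratio of MR49F to LNCaP was 1.07 with BRG1 and 1.14 with SMARCC2.

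LEF1 (chromosome 4, 108047548 to 108168932) had 8 MR49F and 7 LNCaP BRG1 peaks, and 8 MR49F and 3 LNCaP SMARCC2 peaks. Inside the gene the counts were 5 and 2 with BRG1 and 4 and 0 with SMARCC2, again MR49F and then LNCaP. The start side of the gene, at its upper-coordinate end on the minus strand, was covered in MR49F only. This region (108166844 to 108169370) had −log10 q-values of 16.8 with BRG1 and 29.5 with SMARCC2, folds over local background of 7.04 and 10.1, and 32 and 43 fragments. The summits stood at −738 and −735 bases from that end, inside the gene, and neither LNCaP list had a summit within 1 kb of it. The RefSeq promoter window at hand for LEF1 belongs to a start further inside (108166301), 293 and 523 bases from the BRG1 and SMARCC2 peaks. The nearest LNCaP BRG1 peak began inside the gene at 108153052, and LNCaP SMARCC2 had no peak inside LEF1. An uncharacterised protein-coding locus, LOC124900752, ends 0.168 kb from the middle of this region, so either locus may claim it by position.

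Further sites inside LEF1 were called in MR49F only. MR49F-only regions of both antibodies lay at 11.3 kb (−log10 q-values 14.1 with BRG1 and 26.1 with SMARCC2) and 24.8 kb (4.2 and 4.48) inside the lower-coordinate end. A region just outside that end (108044831 to 108046644) was in all 4 lists, with −log10 q-values of 23.2 in MR49F BRG1, 5.93 in LNCaP BRG1, 16.0 in MR49F SMARCC2 and 4.65 in LNCaP SMARCC2. LNCaP BRG1 had 2 peaks inside the gene. The stronger lay in a region (108153052 to 108154783) also called in both MR49F lists. Its −log10 q-values were 10.7 in LNCaP BRG1, 8.17 in MR49F BRG1 and 7.64 in MR49F SMARCC2. The weaker LNCaP BRG1 peak, with no other list, was called at 3.58. The background ratio was 0.855 for BRG1 and 0.858 for SMARCC2, lower in MR49F with each.

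TCF7L2 (chromosome 10, 112950247 to 113167678) showed the opposite BRG1 balance. It had 4 MR49F and 11 LNCaP BRG1 peaks, an MR49F share of 26.7% (10.9 to 52.0), the lowest of the 9 genes. With SMARCC2 it had 8 MR49F and 6 LNCaP peaks, a share of 57.1% (32.6 to 78.6). All of them lay inside the gene, and its 100 kb flanks held none. The lines shared 3 regions, at 1.8, 5.62 and 68.5 kb from the start, which were in all 4 lists. The region at 1.8 kb had −log10 q-values of 14.8 in MR49F BRG1, 11.98 in LNCaP BRG1, 9.33 in MR49F SMARCC2 and 9.19 in LNCaP SMARCC2.

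Apart from these shared regions no MR49F BRG1 peak was called in TCF7L2. LNCaP BRG1 had 7 further regions there, between 50.4 and 177 kb from the start. The strongest, at 113092785 to 113094379, had −log10 q-values of 17.4 with LNCaP BRG1 and 21.1 with LNCaP SMARCC2, among the strongest 8.67% and 8.26% of those lists, and 6.54 with MR49F SMARCC2. A LNCaP-only region of both antibodies lay at 113035650 to 113036301 (5.77 with BRG1 and 3.24 with SMARCC2, from 20 and 17 fragments). The 2 regions at 164 and 166 kb were called in MR49F SMARCC2 alone. TCF7L2 was the only gene of the 9 with 0 MR49F-only regions of both antibodies; 70.2% of all genes had at least 1. The background ratio of MR49F to LNCaP was 0.946 with BRG1 and 0.914 with SMARCC2.

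At gene ends, the 9 genes fell into 3 patterns. A summit within 1 kb of an end was present in all 4 lists at ZNRF3, APCDD1, NKD1 and CTNNB1, 4 of 9 against 18.9% of all genes. It was present in both MR49F lists and neither LNCaP list at LGR5 and LEF1, 2 of 9 against 11.3%. The reverse held for 0 of 9, against 1.1%. The LGR5 summits were weak: the MR49F BRG1 peak stood at 2.18 and the MR49F SMARCC2 peak at 4.44 in −log10 q-value. Of LGR5 and LEF1, only LEF1 (16.8 and 29.5) would keep its summits at a threshold of 5. The share of all genes was not counted at that threshold, so 2 of 9 is not read as an excess. AXIN2, RNF43 and TCF7L2 had mixed combinations: the LNCaP BRG1 summit of AXIN2, the MR49F SMARCC2 summit of RNF43 and the MR49F BRG1 summit of TCF7L2 were not within 1 kb. At AXIN2 and TCF7L2 the region nearest to that end was nevertheless in all 4 lists. All 9 genes had such a summit in at least 1 list, LGR5 only through the weak peaks above. None was present at 41.8% of all genes and at 31.1% of the 90 other Wnt genes described below. Of those 90, 25.6% had such a summit in all 4 lists. The 9 genes were chosen with earlier results of these data known, so neither 9 of 9 nor 4 of 9 is read as an excess.

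Joined across lists, the peaks formed 102 regions, of 65483 in the series. Of these, 24 (23.5%, Wilson 95% interval 16.4 to 32.6) were in all 4 lists, against 22.7% of all regions. MR49F-only regions of both antibodies numbered 22 (21.6%, 14.7 to 30.5), against 18.3%. LNCaP-only regions of both numbered 3 (2.94%, 1.01 to 8.29), against 3.67%. LNCaP BRG1 alone gave 15 (14.7%, 9.12 to 22.9), against 10.1%. MR49F SMARCC2 alone gave 12 (11.8%, 6.86 to 19.4), against 12.5%, and MR49F BRG1 alone gave 7 (6.86%, 3.36 to 13.5), against 9.03%. Other combinations of lists made up 19 (18.6%, 12.3 to 27.3), against 20.8%. LNCaP SMARCC2 alone gave 0 of 102, which allows a share of up to 2.94%, against 2.92% of all regions. For each class the share of all regions lay inside the interval for the 9 genes. Regions in all 4 lists had a median width of 1602 bp, MR49F-only regions of both antibodies 884 bp, and regions of LNCaP BRG1 alone 478 bp.

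**Figure D3:**
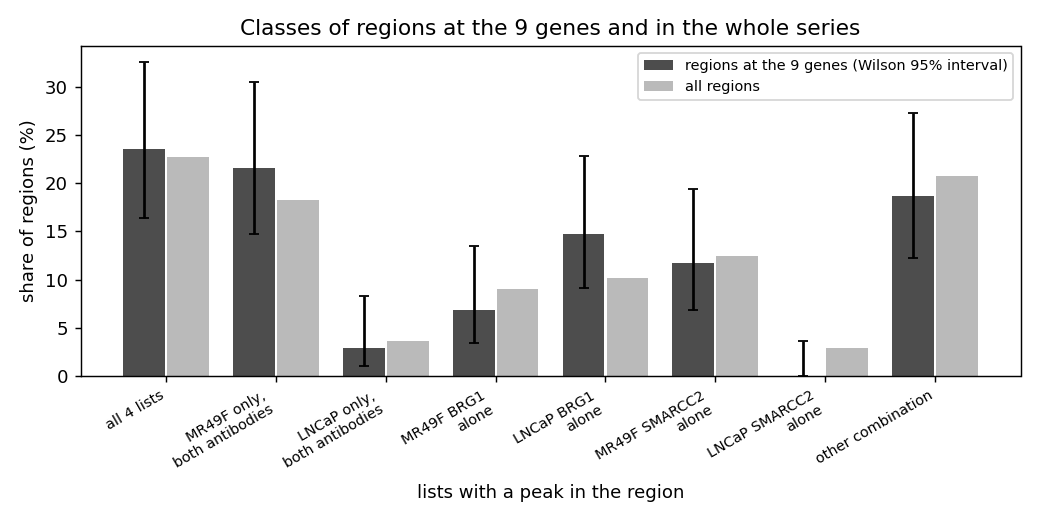
Share of regions by the lists that hold a peak (y axis, percent), for the 102 regions at the 9 genes (dark bars, Wilson 95% intervals) and all 65483 regions (light bars). Each light bar lies within the interval of its dark neighbour, as at 21.6% and 18.3% for MR49F-only regions of both antibodies.

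In the full lists, BRG1 peaks were accompanied by SMARCC2 more often in MR49F. Of the BRG1 peaks at the 9 genes, 54 of 66 in MR49F (81.8%, 70.9 to 89.3) overlapped a SMARCC2 peak of the same line, against 33 of 60 in LNCaP (55.0%, 42.5 to 66.9). With each list limited to its 10000 strongest peaks the shares were close, at 63.6% of 11 MR49F (35.4 to 84.8) and 66.7% of 12 LNCaP BRG1 peaks (39.1 to 86.2). These intervals overlap, so the gap between the lines was not seen there. Over all peaks, anywhere in the genome, the shares were 79.8% in MR49F and 55.3% in LNCaP, close to those at the 9 genes. The share was higher in MR49F at 8 of the 9 genes, against 77.9% of the 17442 genes with a BRG1 peak in both lines. It was higher in LNCaP at RNF43 (1 of 9, against 12.9%), where it was 4 of 10 in MR49F and 5 of 10 in LNCaP. The widest gaps were at NKD1 (3 of 4 in MR49F and 1 of 7 in LNCaP) and LGR5 (4 of 4 and 1 of 3). At ZNRF3 the lines were close, with 19 of 22 in MR49F and 10 of 12 in LNCaP. Taken the other way, BRG1 was found at 55 of 75 SMARCC2 peaks in MR49F (73.3%, 62.4 to 82.0) and at 33 of 38 in LNCaP (86.8%, 72.7 to 94.2). The whole lists gave 75.7% and 80.1%.

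**Figure D4:**
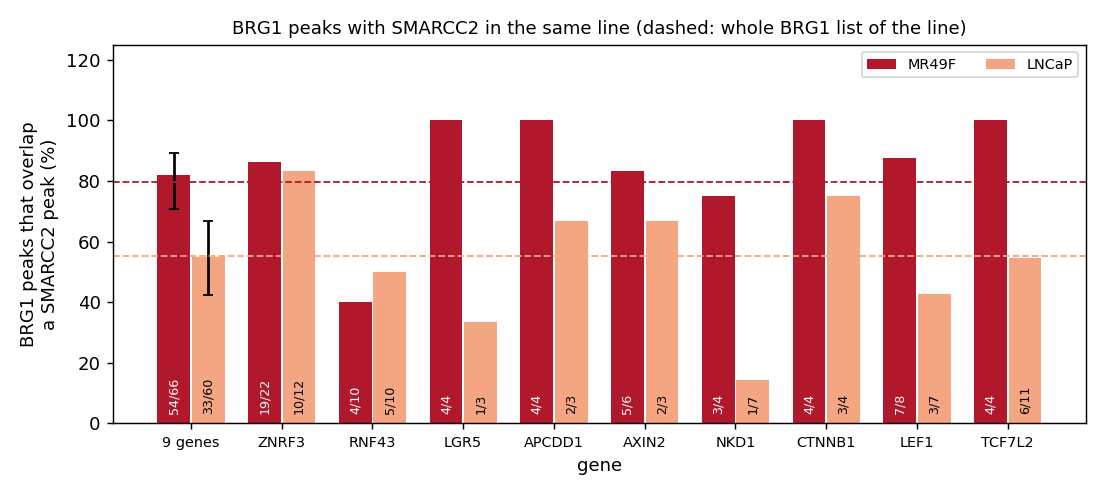
Share of BRG1 peaks that overlap a SMARCC2 peak of the same line (y axis, percent) over the 9 genes together and for each gene, in MR49F (dark) and LNCaP (light), with counts in the bars. Error bars, drawn for the 9 genes together, are Wilson 95% intervals and dashed lines give the whole lists, 79.8% and 55.3%; RNF43 alone has the lower bar in MR49F.

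Peaks at these genes were weaker at the median than the whole list in 3 lists and stronger in LNCaP SMARCC2. The medians are given without an interval. Their median −log10 q-value was 7.74 in MR49F BRG1 (whole list 9.47), 6.29 in LNCaP BRG1 (6.77), 8.41 in MR49F SMARCC2 (10.8) and 8.03 in LNCaP SMARCC2 (6.95). Ranked by −log10 q-value from the top, the median peak stood at 59.7% of the MR49F BRG1 list, 54.5% of the LNCaP BRG1 list, 61.7% of the MR49F SMARCC2 list and 41.9% of the LNCaP SMARCC2 list. The strongest 10% of a list included 3 of 66 MR49F BRG1 peaks, 2 of 60 LNCaP BRG1 peaks, 0 of 75 MR49F SMARCC2 peaks and 1 of 38 LNCaP SMARCC2 peaks. The strongest MR49F SMARCC2 peak, in the window of ZNRF3, missed that class by a small margin, at 10.01%. Folds over local background had medians of 4.39 in MR49F BRG1 (whole list 4.79), 3.88 in LNCaP BRG1 (4.05), 4.84 in MR49F SMARCC2 (5.27) and 4.35 in LNCaP SMARCC2 (4.22).

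The wider pathway stood close to the background. A list of 90 other Wnt genes was counted with the same window. Of them, 44 (48.9%) had more MR49F peaks with both antibodies, against 53.8% of all genes, and CCND1, SOX9 and TBL1XR1 (3.33%, against 3.94%) had more LNCaP peaks with both. With 10000 peaks kept per list the counts came to 11 with more MR49F and 21 with more LNCaP peaks. No share of all genes is at hand for that setting, so this split cannot be read as particular to Wnt genes. By role, the count with more MR49F peaks in the full lists was 12 of 23 ligands, R-spondins and secretion factors, 7 of 15 receptors, 8 of 12 inhibitors (secreted ones, KREMEN1, KREMEN2 and CXXC4), and 7 of 13 destruction complex and Dishevelled genes. It was 6 of 15 nuclear effectors and 4 of 12 transcriptional targets. The excess of MR49F-only regions of both antibodies was widest at ROR1 (8), the gene of a receptor for Wnt5a, and at the co-receptor genes LRP5 (7) and LRP6 (7), each with 0 LNCaP-only regions. NOTUM, which encodes a secreted enzyme that inactivates Wnt ligands, was tied with LRP5 and LRP6 (7 and 0). LRP6 had 13 MR49F and 7 LNCaP BRG1 peaks, and 14 MR49F and 6 LNCaP SMARCC2 peaks. The excess of LNCaP-only regions was widest at TBL1XR1 (0 MR49F-only and 8 LNCaP-only), a corepressor exchange factor gene, at SOX9 (0 and 5) and at CSNK1A1 (1 and 3), the casein kinase that primes beta-catenin for destruction. RYK, a Wnt receptor gene, was tied with CSNK1A1 (1 and 3).

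Among those other Wnt genes, the most similar set of counts was found by the Euclidean distance of log2(peaks + 1) over the 4 libraries. ZNRF3 was nearest to WNT7B (distance 0.398), with 19 MR49F and 14 LNCaP BRG1 peaks and 20 MR49F and 10 LNCaP SMARCC2 peaks. AXIN2 was nearest to BTRC (0.222), LEF1 to TBL1X (0.364), RNF43 to FZD5 (0.543), NKD1 to WNT9B (0.762) and TCF7L2 to RYK (0.595). RYK had 3 MR49F and 8 LNCaP BRG1 peaks and 7 MR49F and 5 LNCaP SMARCC2 peaks. CTNNB1, APCDD1 and LGR5 were all nearest to SP5 (0.375, 0.525 and 0.559). With 4 values per gene and low counts, such distances describe the counts only.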

How the data were processed

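Peaks were profiled by ChIP-seq with antibodies against BRG1 and SMARCC2 in MR49F and LNCaP cells, 1 library each; input DNA was not analysed here. BWA 0.7.10, MACS2 2.1.0 and SAMtools, with the build hg38, are listed in the submitters' processing notes; which input served as control and how duplicates were treated is not stated there. Each deposited peak carries a fold enrichment (a ratio over local background), a −log10 p-value and a −log10 q-value from the authors' peak caller.

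From fold and p-value, with a pseudocount of 1, the whole number of fragments at the summit and the local background were solved. Between 99.99% and 100% of peaks of a list were matched within 0.01 in −log10 p-value. This required scaling the LNCaP fragments by 0.971 (BRG1) and 0.92 (SMARCC2); the solver was tested on simulated peaks. Local background ratios are medians over peaks in fixed 10 Mb windows, relative to autosomes.

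Genes came from RefSeq (GRCh38.p14, the build of hg38), without strand except where a promoter window (250 bases before to 50 after the start) was given; 5 of the 9 genes had windows. Peaks sharing at least 1 bp were joined into regions. Shares have Wilson 95% intervals, which cover counting error only; for a count of 0 the limit is 3 counts. All 9 genes are named. Of the other Wnt genes, up to 3 per direction are named, by the difference between MR49F-only and LNCaP-only regions of both antibodies, ties being taken by symbol, and for each of the 9 genes the 1 with the closest counts; those called with more LNCaP peaks, and those tied with a named gene, were named after their values were seen. The 9 genes and the lists were chosen with earlier results of these data known. Python 3.11.15, NumPy 2.4.6, pandas 2.3.3, SciPy 1.17.1 and matplotlib 3.10.9 were used. Alternatives were other q-value, list length, window, assignment and overlap settings.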

Additional observations from a re-analysis of the deposited data

How the results depend on the processing

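No paired analysis was possible because each line and antibody had 1 library; for the same reason no library could be left out. With 10000 peaks per list the MR49F share at the 9 genes was 47.8% for BRG1 (11 MR49F and 12 LNCaP peaks) and 40.7% for SMARCC2 (11 and 16). The intervals, 29.2 to 67.0 and 24.5 to 59.3, both contain 50%. There single genes turned, on few peaks: APCDD1 with BRG1 and CTNNB1 and TCF7L2 with SMARCC2 came to 0 MR49F peaks against 1, 2 and 3 in LNCaP, a share of 0%. Equal list lengths remove the longer MR49F lists by construction. In the same setting the 9 genes had 4 MR49F-only regions of both antibodies, 5 LNCaP-only and 1 in all 4 lists, and 2 genes (AXIN2 and LEF1) had more MR49F peaks with both antibodies. The other Wnt genes then split into 11 with more MR49F and 21 with more LNCaP peaks, and 63.6% of MR49F and 66.7% of LNCaP BRG1 peaks carried SMARCC2, the opposite order to the full lists. With a −log10 q-value of at least 5, regions in all 4 lists came to 15, LNCaP-only regions to 1, other Wnt genes with more LNCaP peaks to 1, and MR49F BRG1 peaks with SMARCC2 to 93.3%. With gene spans plus 10 kb, spans alone and the nearest gene, in that order, MR49F-only regions of both antibodies came to 11, 11 and 13 and regions in all 4 lists to 15, 14 and 15. Other Wnt genes with more MR49F peaks came to 28, 21 and 28, and those with more LNCaP peaks to 6, 5 and 5; fewer peaks are counted in these settings. With reciprocal overlap of 50%, LNCaP-only regions came to 6, and BRG1 peaks with SMARCC2 to 66.7% in MR49F and 38.3% in LNCaP; with summits within 200 bp the shares were 59.1% and 35.0%. In the 4 remaining settings of threshold and window the MR49F shares stayed between 51.4% and 54.2% for BRG1 and between 62.5% and 69.9% for SMARCC2, inside their intervals. The fewest fragments behind a peak at these genes were 11, in MR49F BRG1; a missing peak does not show that the protein was absent.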

Other observations

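Neighbouring genes took part of the peaks counted above. In the window of ZNRF3, 7 regions lay nearest to XBP1, 2 of them in all 4 lists and 2 in MR49F only with both antibodies, and they held 6 MR49F and 3 LNCaP BRG1 peaks and 6 MR49F and 2 LNCaP SMARCC2 peaks. On the other side, KREMEN1, which encodes a receptor for the Wnt inhibitor DKK1, had a region 0.362 kb from one of its ends in all 4 lists, with −log10 q-values of 8.08 in MR49F BRG1, 14.6 in LNCaP BRG1, 19.0 in MR49F SMARCC2 and 14.6 in LNCaP SMARCC2. The window of AXIN2 held 4 regions nearest to CEP112, 1 of them in all 4 lists. In the window of NKD1, 2 regions lay nearest to NOD2, 2 to SNX20 and 1 to CYLD, none of them in all 4 lists. A region of 4 lists near HADH accounted for 1 MR49F and 3 LNCaP BRG1 peaks and 2 MR49F and 2 LNCaP SMARCC2 peaks in the window of LEF1.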
